A study of Arabidopsis thaliana with 12 samples.

Results

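Apyrases cut the terminal phosphates from nucleoside triphosphates and diphosphates, ATP among them. Outside a plant cell, phosphatases then release the nucleoside, nucleoside hydrolases split it into base and ribose, and transporters bring the nucleoside or the base back into the cell. ATP outside the cell acts as a signal in roots, so enzymes of this chain are among those that can set how long that signal lasts. The genes considered here were chosen by locus from 10 loci, namely the 7 apyrase genes APY1 to APY7, the nucleoside transporter gene ENT3 (AT4G05120) and the nucleoside hydrolase genes AT5G18860 and AT2G36310. The hydrolase of AT5G18860 acts outside the cell and that of AT2G36310 in the cytosol. A gene counted as measured where a probe set of the array lists it and no other gene. By that rule 1 of the 10 was measured, AT1G14240, which is APY3 in the numbering of the family. The values below therefore describe 1 apyrase and not the chain as a whole, and the platform annotation and the RefSeq table of the TAIR10.1 assembly name this gene by its locus only.

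The apyrase loci AT1G14230 and AT1G14250 share 1 probe set that lists both, so its value cannot be assigned to either gene and is given as that of the shared probe set. In the RefSeq table AT1G14230, AT1G14240 and AT1G14250 lie side by side on chromosome 1, with 0 genes between neighbours. Related genes can share probes, and a part of the AT1G14240 signal may come from its neighbours or a part of theirs from it. The other 7 loci (AT3G04080, AT5G18280, AT2G02970, AT4G19180, AT4G05120, AT5G18860 and AT2G36310) have no probe set of their own in the annotation used here and were not analysed here.

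Roots of Arabidopsis thaliana seedlings, 5 days old and of the Col-0 background, were profiled on 12 one-colour arrays with 3 biological replicates in each of 4 groups. These were dorn1-1 given ATP, dorn1-1 given buffer, wild type given ATP and wild type given buffer. The mutant dorn1-1 carries a chemically induced (EMS) mutation in a receptor of the lectin kinase class that recognises extracellular ATP. The wild type expressed aequorin, a protein that reports calcium, and the labels do not say whether the mutant did too. Every group was kept overnight in the dark in 2 mM MES with 10 mM CaCl2, with root harvest 30 min after treatment. Each replicate was a pool of 120 seedlings held in 1 well, and p-values measure the spread between such pools. The ATP dose is not settled here, because the sample titles give 100 mM whereas the protocol gives 100 µM. An EMS lesion need not alter the transcript level, and the mutated gene was not analysed here.

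All levels are log2 RMA values (robust multi-array average), so a difference of 1 is 2-fold, and levels of different probe sets are not compared. The array medians lay between 6.07 and 6.17. Of the root markers 1 of 11 was measured, the root hair expansin gene EXPA7, at 5.84 to 6.99 over the 12 arrays. All 3 shoot markers were measured, and the mean of RCA, LHCB4.1 and PRK, genes of photosynthesis, averaged 11.00 in dorn1-1 ATP (SD 0.33), 10.47 in dorn1-1 buffer (SD 1.40), 11.64 in wild-type ATP (SD 0.49) and 10.30 in wild-type buffer (SD 0.47, n = 3 each). The 3 wild-type ATP arrays, between 11.08 and 11.98, lay above the 3 wild-type buffer arrays, between 9.76 and 10.59 (difference 1.34, two-sided exact permutation p = 0.1, the smallest that 3 arrays against 3 allow).

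AT1G14240 had its highest values in wild-type roots kept in buffer. Its log2 value was 5.77, 6.26 and 5.74 in dorn1-1 ATP replicates 1 to 3, 5.70, 6.04 and 5.89 in dorn1-1 buffer, 6.05, 5.98 and 5.87 in wild-type ATP, and 6.34, 6.30 and 6.61 in wild-type buffer. Every wild-type buffer array lay above all 9 others, and the other groups overlapped one another. The margin was small, with wild-type buffer replicate 2 at 6.30 and dorn1-1 ATP replicate 2 at 6.26. The share of all probe sets with this pattern was not computed. The group means were 5.88 ± 0.17 in dorn1-1 buffer, 5.92 ± 0.29 in dorn1-1 ATP, 5.96 ± 0.09 in wild-type ATP and 6.42 ± 0.17 in wild-type buffer (SD, n = 3 each). No 2 neighbours in that order differed past an adjusted p of 0.05 in limma. The largest distance over all arrays was 0.90 on the log2 scale, and the spread within a group, an SD of 0.19, was larger than that of 56.8% of the 22746 probe sets tested.

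**Figure D1:**
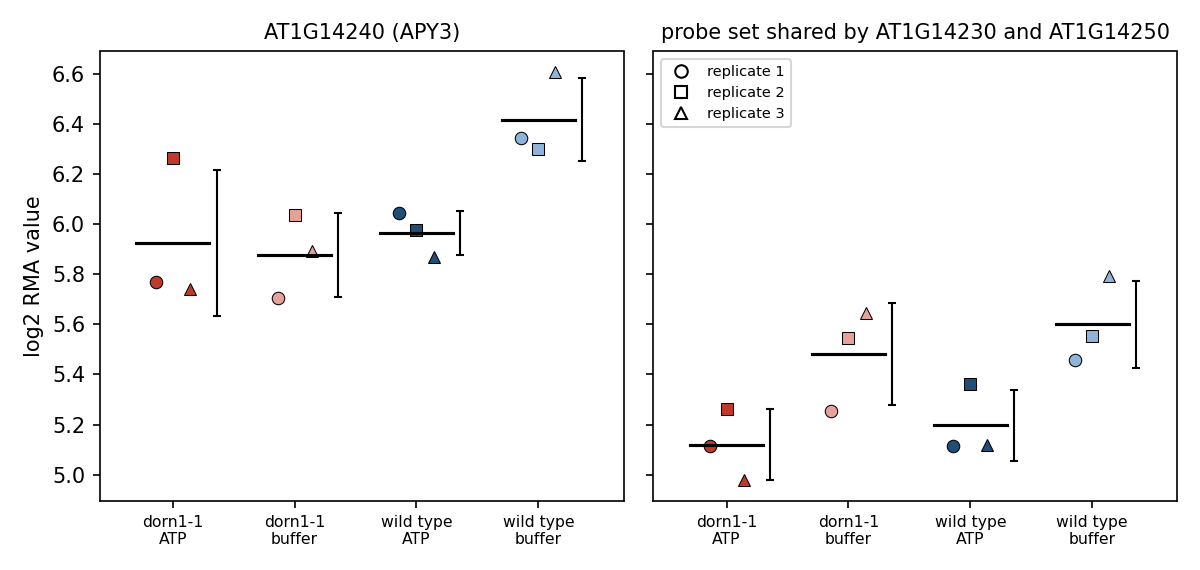
Log2 RMA value per array of AT1G14240 (left) and of the probe set shared by AT1G14230 and AT1G14250 (right) in the 4 groups; marker shape gives the replicate, horizontal bars the group mean and vertical bars its SD (n = 3). For AT1G14240 the 3 wild-type buffer arrays, 6.30 to 6.61, lie above the other 9, the highest of which is at 6.26. The share of all probe sets with this pattern was not computed. All wild-type ATP arrays lay below all wild-type buffer arrays for 19.2% of them, and all dorn1-1 buffer arrays did so for 11.1%. For the shared probe set the means in ATP, 5.12 in dorn1-1 and 5.20 in the wild type, lie below those in buffer, 5.48 and 5.60.

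The first comparison asked whether ATP changed the apyrase transcript in wild-type roots. AT1G14240 averaged 5.96 in ATP and 6.42 in buffer, a log2 difference of -0.45 (SE 0.15, 95% confidence interval -0.79 to -0.12), which is a ratio of 0.730 (interval 0.579 to 0.920). All 3 ATP arrays lay below all 3 buffer arrays. The difference did not pass over all probe sets (limma unadjusted p = 0.0120, adjusted p = 0.132). In this comparison 0.664% of the probe sets passed in either direction and 0.185% were lower in ATP, while 19.2% had all ATP arrays below all buffer arrays, so this separation was common. The count behind 0.664%, 151 probe sets, was 6 without wild-type buffer replicate 2, 10 without wild-type buffer replicate 3 and 2316 without dorn1-1 buffer replicate 1. Across all probe sets the median difference was -0.032. In bulk tissue, fewer cells that express the gene and less transcript per cell cannot be told apart.

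The shoot marker mean was higher in wild-type ATP than in wild-type buffer, where AT1G14240 was lower. Across the 12 arrays AT1G14240 ran against the shoot marker mean, with Pearson r = -0.55 (permutation p = 0.0699) and Spearman rho = -0.57 (permutation p = 0.0603), each unchanged after Benjamini-Hochberg adjustment over the 2 relations computed. The permutations took no account of the 4 groups, so these p-values mix group differences with covariation within groups. Without the 2 arrays farthest from the median of the shoot marker mean r was -0.82, and with group means removed it was -0.66. With the shoot marker mean as a covariate the wild-type difference of AT1G14240 was -0.24 (limma adjusted p = 0.699). That mean was itself separated by treatment in the wild type, so ATP and shoot tissue cannot be told apart. The part of shoot tissue was not tested. Without the covariate the wild-type difference passed with only the wild-type groups in the fit (limma adjusted p = 0.0458), where 11.0% of all probe sets passed. It also passed with array weights (-0.47, limma adjusted p = 0.0122), where 27.3% did. The root marker EXPA7 was 6.70, 6.01 and 6.30 in wild-type ATP, against 6.99, 6.84 and 6.52 in wild-type buffer. Its log2 difference of -0.44 (SE 0.25, limma adjusted p = 0.326) was close in size to that of AT1G14240, although the EXPA7 arrays overlapped. Its part in the difference of AT1G14240 was not tested.

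**Figure D2:**
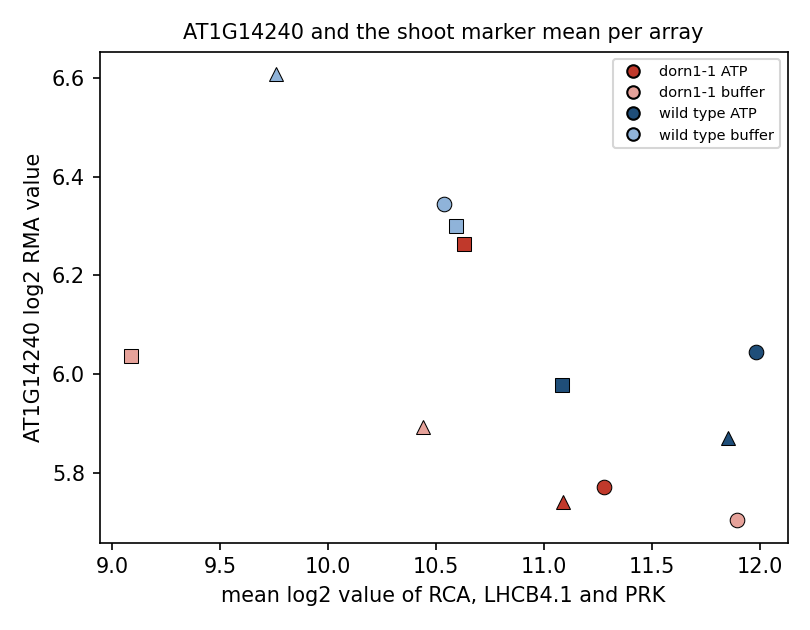
AT1G14240 log2 RMA value (vertical) against the mean log2 value of the shoot markers RCA, LHCB4.1 and PRK (horizontal) for each of the 12 arrays; colour gives the group and marker shape the replicate (circle 1, square 2, triangle 3). The Pearson correlation is -0.55, and dorn1-1 buffer replicate 2 has the lowest shoot marker mean, 9.09, at an AT1G14240 value of 6.04.

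In dorn1-1 the estimated change was close to 0. AT1G14240 averaged 5.92 ± 0.29 in ATP and 5.88 ± 0.17 in buffer (SD, n = 3 each), a log2 difference of 0.047 (SE 0.15, limma adjusted p of 1.00). The 95% confidence interval, -0.29 to 0.38, leaves room for a change of either sign, and the ATP and buffer arrays overlapped. Over all probe sets limma called 0 in dorn1-1, or 0% of them, with 523 at an unadjusted p under 0.05. The sign rested on single arrays, since without dorn1-1 ATP replicate 2, the highest of its group, the difference was -0.12, and without dorn1-1 buffer replicate 1 it was -0.039.

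The responses of the genotypes were compared directly. The dorn1-1 difference of AT1G14240 minus the wild-type difference was 0.50 (SE 0.22, 95% confidence interval 0.029 to 0.97, limma unadjusted p = 0.0393, adjusted p = 0.712). It did not pass, and 0.00879% of the probe sets did, which is 2 of 22746. The value was 0.33 without dorn1-1 ATP replicate 2 and 0.37 with the shoot marker covariate.

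The difference between genotypes in buffer was the largest of the 4 two-group differences of AT1G14240 in size. The gene averaged 5.88 ± 0.17 in dorn1-1 buffer and 6.42 ± 0.17 in wild-type buffer (SD, n = 3 each), a log2 difference of -0.54 (SE 0.15, 95% confidence interval -0.87 to -0.21), or a ratio of 0.688. All 3 dorn1-1 arrays lay below all 3 wild-type arrays, which 11.1% of all probe sets also showed. The limma unadjusted p was 0.00422 and the adjusted p = 0.193, so it did not pass. The share of probe sets that passed was 0.0659%, and 0.0396% in the lower direction. With array weights AT1G14240 passed (-0.48, limma adjusted p = 0.0181), in a fit where 11.3% of all probe sets passed. With the shoot marker covariate, where 1.35% passed, it did not (-0.51, limma adjusted p = 0.0723). The count of 15 probe sets behind 0.0659% lay between 2 and 315 when 1 array was left out, lowest without wild-type buffer replicate 1 and highest without dorn1-1 buffer replicate 1. The shoot marker mean differed by 0.18 between these groups (two-sided exact permutation p of 1.0). This comparison and the wild-type response of AT1G14240 share the 3 wild-type buffer arrays, so the pair of differences is not independent.

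Under ATP the genotypes overlapped. AT1G14240 averaged 5.92 ± 0.29 in dorn1-1 and 5.96 ± 0.09 in the wild type (SD, n = 3 each), with a log2 difference of -0.039 (95% confidence interval -0.37 to 0.29, limma adjusted p = 0.921). In this comparison 6.68% of all probe sets passed. That count of 1519 was 272 without wild-type ATP replicate 3, 354 without dorn1-1 ATP replicate 2, 579 without wild-type ATP replicate 2 and 2643 without dorn1-1 buffer replicate 1. The sign again rested on single arrays, with values of 0.053 and 0.038 without dorn1-1 ATP replicates 3 and 1, 0.0012 without wild-type ATP replicate 1, and -0.21 without dorn1-1 ATP replicate 2.

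The shared probe set of the neighbouring apyrase loci AT1G14230 and AT1G14250 gave 5.12, 5.26 and 4.98 in dorn1-1 ATP, against 5.25, 5.54 and 5.65 in dorn1-1 buffer. In the wild type it gave 5.11, 5.36 and 5.12 in ATP, against 5.46, 5.55 and 5.79 in buffer. The ATP arrays lay below the buffer arrays in the wild type, as for 19.2% of all probe sets. In dorn1-1 they did so except that replicate 2 in ATP, at 5.26, was just above replicate 1 in buffer, at 5.25. The log2 difference between ATP and buffer for AT1G14230 and AT1G14250 together was -0.36 in dorn1-1 (SE 0.14, 95% confidence interval -0.66 to -0.059, limma unadjusted p = 0.0230, adjusted p of 1.00) and -0.40 in the wild type (SE 0.14, 95% confidence interval -0.70 to -0.10, limma unadjusted p = 0.0132, adjusted p = 0.137). The dorn1-1 difference minus the wild-type difference was 0.042 (95% confidence interval -0.38 to 0.47, limma adjusted p = 0.958). Of all probe sets, 2.3% in dorn1-1 and 22.2% in the wild type had an unadjusted limma p under 0.05 for the response. Neither response of the shared probe set passed over all probe sets, and with the shoot marker covariate the wild-type one was -0.20 (limma adjusted p = 0.720). With array weights the wild-type response of AT1G14230 and AT1G14250 together passed (-0.43, limma adjusted p = 0.0106), in the fit where 27.3% of all probe sets passed. The genotypes differed by -0.12 in buffer and by -0.078 in ATP, with limma adjusted p = 0.781 and 0.801.

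AT1G14240 and the shared probe set followed each other across the 12 arrays with Pearson r = 0.67 (permutation p = 0.0198, adjusted p = 0.0395) and Spearman rho = 0.61 (permutation p = 0.0407, adjusted p = 0.0603). The Pearson r was 0.67 without the 2 arrays farthest from the median of the shared probe set and 0.71 with group means removed. For the latter no p was computed. The permutations shuffled all 12 arrays without regard to group, so these p-values do not separate group differences from covariation within groups. Both probe sets come from the same arrays, and they may share probes. Among 13512 other probe sets with exactly 1 gene, those whose values ran most like AT1G14240 over the 12 arrays were AT3G06620 (r = 0.91, rho = 0.87) and AT3G45530 (r = 0.90, rho = 0.86). With group means removed r was 0.77 for AT3G06620 and 0.87 for AT3G45530. These were picked for their correlation, so the coefficients are a description and carry no test.

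The lists of other genes for transport, hydrolysis, salvage and breakdown of nucleotides held 56 loci, of which 8 were measured. None of the 3 nucleoside hydrolase loci or 6 purple acid phosphatase loci was among them, so no listed gene of these steps was measured. Phosphatases outside those 6 loci were not listed. The annotation used here also leaves 8730 of the tested probe sets without a gene, so the array may still hold these genes. In each of the 5 comparisons limma called 0 of the 8 higher and 0 lower. The number with an unadjusted p under 0.05 was 0 in the wild-type response, 0 in the dorn1-1 response, 0 in the difference between responses, 1 between genotypes in buffer and 2 between genotypes in ATP. Over all probe sets the share under that value was 22.2%, 2.3%, 6.97%, 12.9% and 21.7% in the same order, so the counts of 1 and 2 among 8 genes lay near the shares over all probe sets. The median log2 difference of the 8 was 0.065 in the wild-type response, against -0.032 over all probe sets, and -0.075 in the dorn1-1 response, against 0.020.

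**Figure D3:**
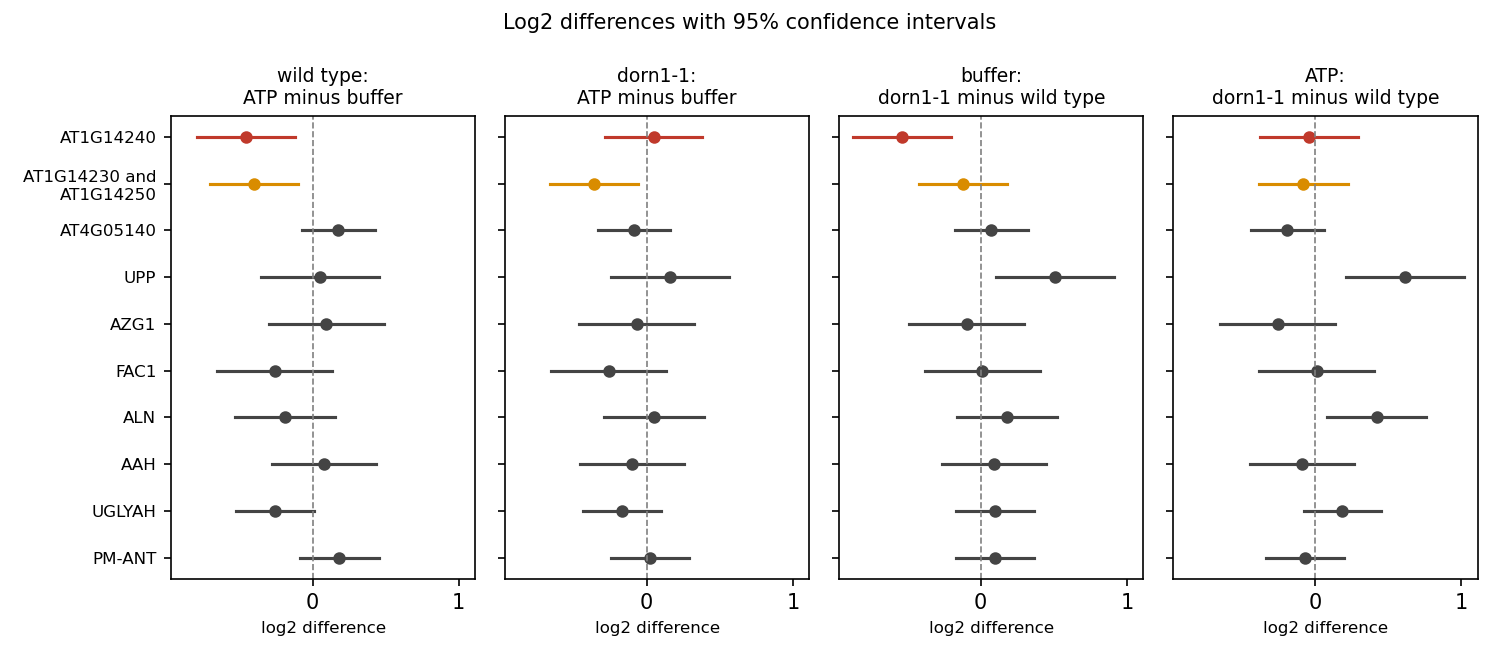
Log2 differences (horizontal) with 95% confidence intervals from limma for AT1G14240 (red), the probe set shared by AT1G14230 and AT1G14250 (orange) and the 8 other measured genes (grey), in 4 comparisons of 3 arrays with 3. The intervals of AT1G14240 exclude 0 for ATP minus buffer in the wild type and for dorn1-1 minus wild type in buffer. An unadjusted limma p under 0.05, which this equals, was reached by 22.2% and 12.9% of all probe sets there. Intervals also exclude 0 for the shared probe set in both ATP responses, UPP in both genotype comparisons and ALN between genotypes in ATP. No difference passed after adjustment over all probe sets.

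Of the genes that move ATP, nucleosides and bases, 3 were measured. PM-ANT (AT5G56450), an ATP carrier of the plasma membrane, was 5.97, 6.23 and 6.05 in wild-type ATP, against 5.89, 5.95 and 5.86 in wild-type buffer. The ATP arrays of PM-ANT lay above the buffer arrays, as for 13.9% of all probe sets, and the log2 difference was 0.18 (SE 0.12, limma adjusted p = 0.399). Without wild-type ATP replicate 2, its highest array, the difference of PM-ANT was 0.11. In dorn1-1 the difference of PM-ANT was 0.021 (limma adjusted p of 1.00). AT4G05140, placed with the nucleoside transporters from background knowledge and without a name in the tables used here, was at 3.81 to 4.33 on all arrays, with a wild-type difference of 0.18 (SE 0.11, limma adjusted p = 0.383). That difference of AT4G05140 was 0.071 without wild-type ATP replicate 2 and 0.27 without wild-type ATP replicate 1. AZG1 (AT3G10960), a transporter of purine bases, had a wild-type difference of 0.093 (SE 0.18, limma adjusted p = 0.800).

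UPP (AT3G53900), which turns uracil back into a nucleotide, was the one measured salvage gene, and its arrays separated by genotype within each treatment. UPP stood at 7.70, 7.67 and 7.35 in dorn1-1 ATP, against 7.28, 6.49 and 7.11 in wild-type ATP. In buffer it was 7.51, 7.47 and 7.27 in dorn1-1, against 6.84, 7.07 and 6.82 in the wild type. Every dorn1-1 array lay above every wild-type array of the same treatment, which was so for 17.1% of all probe sets in ATP and 8.19% in buffer. The log2 difference of UPP was 0.61 in ATP (SE 0.19, 95% confidence interval 0.21 to 1.02, limma unadjusted p = 0.00628, adjusted p = 0.0714) and 0.51 in buffer (SE 0.19, 95% confidence interval 0.10 to 0.91, limma adjusted p = 0.294). Neither passed. The ATP difference of UPP passed without wild-type ATP replicate 1 (0.77, limma adjusted p = 0.0414), where 5.16% of all probe sets passed, and with the shoot marker covariate (0.68, limma adjusted p = 0.0469), where 6.33% did. It was 0.38 without wild-type ATP replicate 2, the lowest array. The ATP response of UPP was 0.16 in dorn1-1 and 0.053 in the wild type, and the difference between these responses was 0.11 (95% confidence interval -0.46 to 0.68).

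The measured genes of base breakdown were FAC1, ALN, AAH and UGLYAH. FAC1 (AT2G38280), the AMP deaminase that opens purine breakdown, averaged 8.33 ± 0.24 in wild-type ATP and 8.59 ± 0.12 in wild-type buffer (SD, n = 3 each), a log2 difference of -0.26 (limma adjusted p = 0.422). In dorn1-1 FAC1 averaged 8.34 ± 0.13 in ATP and 8.60 ± 0.37 in buffer (SD, n = 3 each), also a difference of -0.26 (limma adjusted p of 1.00). The difference between these responses was 0.0010, with a 95% confidence interval of -0.56 to 0.56, so a difference of up to 1.47-fold in either direction lies within the interval. With the shoot marker covariate the wild-type difference of FAC1 was 0.090 (limma adjusted p = 0.902), and without wild-type ATP replicate 2 it was -0.40. The wild-type differences of UPP, AZG1 and AAH, none past the threshold, also changed sign in at least 1 alternative.

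UGLYAH (AT4G17050), an enzyme of ureide breakdown, was 4.74, 4.94 and 4.54 in wild-type ATP, against 4.96, 4.98 and 5.06 in wild-type buffer. Its wild-type difference was -0.26 (SE 0.12, limma unadjusted p = 0.0563, adjusted p = 0.238), the lowest p of the 8 genes in this comparison, and with array weights it passed (-0.35, limma adjusted p = 0.0199), as did 27.3% of all probe sets. The wild-type difference of UGLYAH was -0.16 without wild-type ATP replicate 3 and -0.11 with the shoot marker covariate (limma adjusted p = 0.869). An alternative fit left out probe sets with a mean under 5.32, and UGLYAH, with a mean of 4.94 over the 12 arrays, was among these. ALN (AT4G04955), allantoinase, averaged 7.65 ± 0.26 in dorn1-1 ATP, against 7.23 ± 0.23 in wild-type ATP (each n = 3, SD), a log2 difference of 0.42 (SE 0.16, limma unadjusted p = 0.0195, adjusted p = 0.138). The ALN arrays of these groups overlapped, and with array weights the difference passed (0.50, limma adjusted p = 0.0461), as did 13.5% of all probe sets. AAH (AT4G20070), which acts on the product of ALN, lay between 8.79 and 9.50 on the 12 arrays, with differences between -0.10 and 0.092 in the 4 two-group comparisons.

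**Figure D4:**
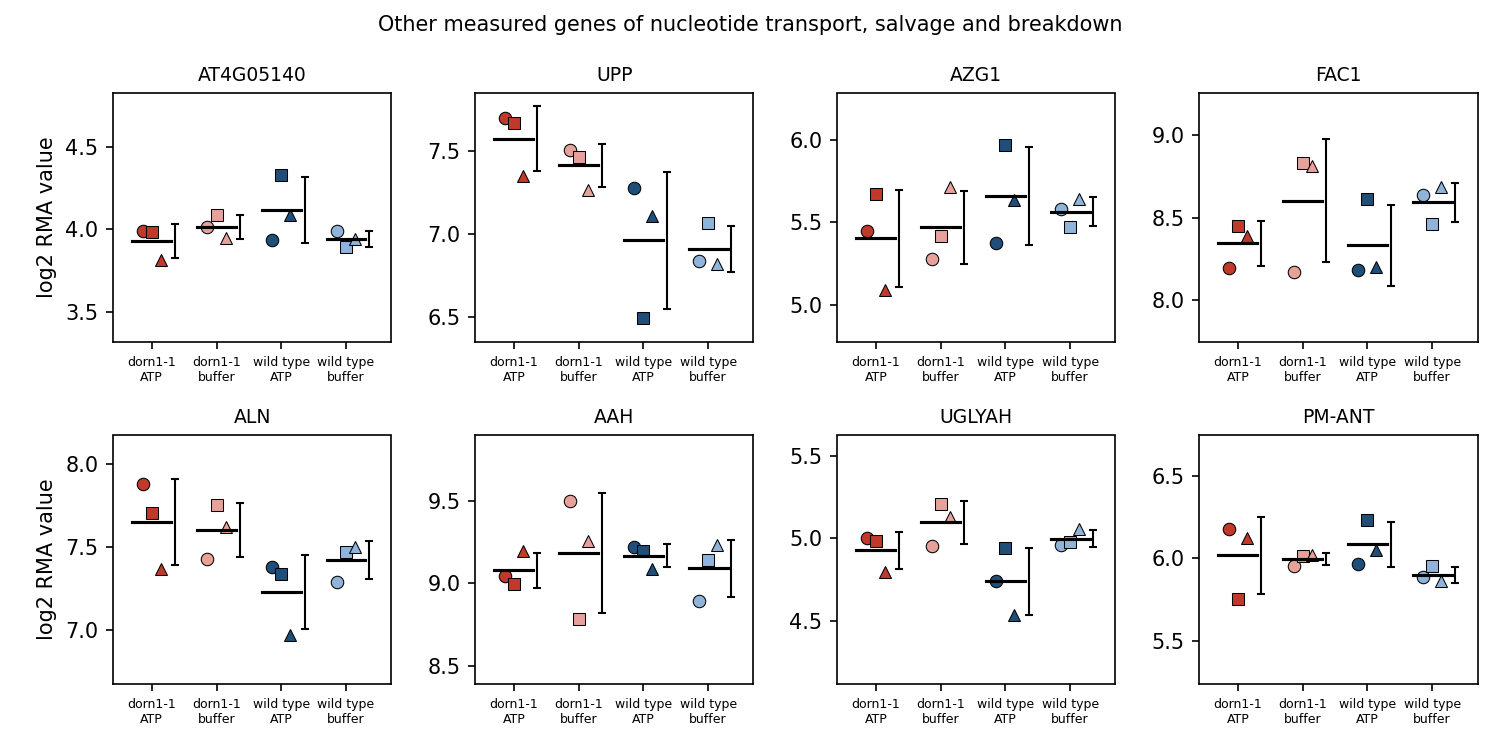
Log2 RMA value per array of the 8 other measured genes in the 4 groups; marker shape gives the replicate (circle 1, square 2, triangle 3), horizontal bars the mean and vertical bars the SD (n = 3), and every panel spans the same height on the log2 scale. UPP lies higher in dorn1-1 than in the wild type within each treatment, with means of 7.58 and 6.96 in ATP and 7.41 and 6.91 in buffer, without passing after adjustment.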

How the data were processed

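Biotin-labelled RNA was read on one-colour arrays. The deposited values are on a log2 scale, with 1 per probe set for each array; the submitters' processing notes name RMA and affy without versions. RMA makes the array distributions alike, which hides a shift common to most transcripts, and it shrinks differences near background. No detection calls or scan batches were used here.

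Of 22810 probe sets, 64 controls were left out and 22746 tested with limma 3.58.1 in R 4.3.3 (1 mean per group, all 12 arrays, no trend or robust moderation, Benjamini-Hochberg adjustment within each of 5 contrasts). The platform annotation lists 13513 probe sets with 1 gene and 503 with several, and 8730 are not listed. Correlations over arrays used scipy 1.17.1 with 100000 permutations of all 12 arrays, not kept within groups. Shoot marker means were compared by exact permutation. Figures used matplotlib 3.10.9. The fit was tested on simulated data.

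All member loci, every measured gene of the pathway lists and the 2 most alike probe sets were to be named. Members and lists were chosen with earlier results of these data known.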

Additional observations from a re-analysis of the deposited data

How the results depend on the processing

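AT1G14240 was refitted under 21 alternatives for each comparison. With array weights it passed for the wild-type response (-0.47) and for dorn1-1 against wild type in buffer (-0.48), and with only the contrasted groups in the fit the wild-type response passed (-0.45); the cause was not tested. Over all probe sets array weights called 6203 against 151 in the wild-type response and 2568 against 15 in buffer, and the contrasted groups alone called 2506 in the wild-type response. In no other alternative did a comparison of AT1G14240 pass. Leaving out 1 array at a time gave -0.51 to -0.36 for the wild-type response, -0.12 to 0.14 for dorn1-1, 0.33 to 0.59 for the difference in response, -0.62 to -0.45 in buffer and -0.21 to 0.053 in ATP, none past the threshold. Over all 21, the sign held for the wild-type response, the difference in response and the buffer comparison. Many of the 21 could not move the estimate, so their sign was fixed in advance. Among these were trend moderation, the replicate block, probe sets left out and arrays left out from groups outside the contrast. For the difference in response, the fit with only the contrasted groups repeats the main fit. Pairing by replicate number was judged on the deviations of each array from its group means, over all probe sets. Replicate numbers paired the samples in part at most, since in 0 comparisons did the deviations of all 3 same-numbered pairs correlate above 0.1. For replicates 1 to 3 in dorn1-1, the deviations of ATP and buffer arrays correlated at 0.48, 0.56 and 0.040. In the wild type these correlations were -0.027, -0.28 and -0.081. Between genotypes the deviations correlated at 0.13, -0.18 and 0.20 in buffer, and at 0.28, 0.23 and 0.028 in ATP. With the replicate block the wild-type count of calls was 447 against 151 (6 to 2316 with 1 array left out), and AT1G14240 stood at -0.45 (limma adjusted p = 0.106). The median over several probe sets was not run, since AT1G14240 has 1. With 3 arrays a group, precision is limited by their number.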
